A study of Mus musculus with 6 samples.

Results

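CUL3 and its BTB adaptor proteins were followed across epididymal white adipose tissue (WAT) of Armc5 flox and AdArmc5 KO mice. The genes were *Cul3* and its RING partner *Rbx1*, every gene of the deposited table whose symbol is Klhl, Kbtbd or Kctd followed by a number, and *Keap1*, *Spop*, *Enc1* and *Armc5*. These were 73 of the 24346 genes of the table, of which 71 encode adaptors or their relatives (37 Klhl, 21 Kctd and 9 Kbtbd genes and the 4 single genes). They lie on 17 chromosomes, with 8 of them on chromosome 14 and 7 on chromosome 7. In Armc5 flox mice, exons 2 and 3 of *Armc5* are flanked by LoxP sites, on an allele of C57BL/6N origin from which the lacZ and neomycin resistance cassettes had been excised with CAG-FLPe. AdArmc5 KO mice have this floxed allele and *Adipoq*-Cre, whose promoter is active in adipocytes, so that the other cells of the tissue keep both exons. All mice were 24 weeks old, were compared as littermates, and were fasted for 24 h and refed for 6 h. There were 3 libraries of each genotype, made from poly(A) RNA.

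CUL3 is a scaffold of ubiquitin ligases. Its C-terminal part holds the RING protein RBX1, which brings the ubiquitin-loaded E2 enzyme, and its N-terminal part binds the BTB domain of an exchangeable adaptor, which in turn binds the substrate. Most KLHL and KBTBD proteins join a BTB domain to a BACK domain and a Kelch propeller, the KCTD proteins carry a BTB domain with other partners, and ARMC5 joins armadillo repeats to a BTB domain. Not every protein with such a name works with CUL3, and KCTD12 and KCTD16 are best known as auxiliary subunits of the GABA-B receptor. CUL3 adaptors are known to act on insulin signalling, on ATP citrate lyase and on SREBF, the transcription factors of lipid synthesis.

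The libraries held 25320676 to 38311639 fragments. Levels are given as FPKM, fragments divided by exon length and by library depth, which can be compared between genes, and values stand in the order of replicates 1, 2 and 3. Changes are given as log2 fold changes of FPKM + 1, AdArmc5 KO against Armc5 flox, from limma, which understate the change of genes with low levels. The 8 adipocyte markers were high in every library (summed FPKM of 23382 to 39200 in Armc5 flox and 21862 to 34374 in AdArmc5 KO), with *Adipoq* between 1896 and 4219 FPKM. Genes of other tissues set some libraries apart before any comparison of genotypes. The 12 markers of ciliated cells summed to 226 FPKM in Armc5 flox replicate 1 and to 207 in AdArmc5 KO replicate 2, against 3.71 to 6.09 in the other 4 libraries, and the 9 markers of duct epithelium to 365 and 303 in the same libraries, against 2.33 to 97.6. The library labelled AdArmc5 KO replicate 3 held 3122 FPKM of *Akr1b7*, a gene of the vas deferens, against at most 17.4 FPKM elsewhere. Of the 8 listed genes of vas deferens and epididymis, *Crisp1* was also high there (685 FPKM against at most 2.53 elsewhere). The others were not, with *Crisp4*, *Adam7*, *Cst8* and *Lcn9* at 0 and *Lcn8* and *Rnase10* at 0.103 and 0.146 FPKM in that library. Summed macrophage markers were highest in AdArmc5 KO replicate 1 and Armc5 flox replicate 2. They reached 1884 and 1640 FPKM for the 8 genes, against 835 to 1208 FPKM in the other libraries. Of these genes, *Fcgr1* and *Cd68* were instead higher in all AdArmc5 KO libraries than in any Armc5 flox library. Their levels were 5.95 to 6.09 against 2.10 to 3.51 FPKM and 99.3 to 148 against 56.2 to 94.9 FPKM. Such a separation held for 3.54% of all tested genes. All 8 macrophage markers had a log2 fold change above 0, and none passed an adjusted p of 0.05 (limma).

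*Armc5*, whose product is the adaptor removed in these mice, was measured at 5.12, 5.66 and 5.58 FPKM in Armc5 flox (5.45 ± 0.30, mean ± SD, n = 3) and at 3.66, 4.48 and 5.82 FPKM in AdArmc5 KO (4.65 ± 1.09). The library labelled AdArmc5 KO replicate 3 stood above all Armc5 flox libraries, so that the level of the gene goes against that label and the groups overlapped. These levels rest on 321 to 862 fragments per library. The log2 fold change was −0.21 (95% confidence interval −0.62 to 0.20, adjusted p = 0.983, limma), and it was −0.35 without the library labelled AdArmc5 KO replicate 3 and −0.08 without AdArmc5 KO replicate 1. The level of the whole gene is a weak check of the deletion, because it also counts fragments outside the LoxP sites and from cells in which the promoter of *Adipoq* is not active. A lower number of cells of a type and a lower amount of RNA per cell cannot be told apart in such bulk libraries.

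On mm10, *Armc5* spans chromosome 7 from 128237357 to 128245100 on the plus strand. In the 6 exons of the transcript Armc5-201, exons 2 and 3 make up 895 of 3834 bases (23.3%), all of them coding, and 895 leaves a remainder of 1 when divided by 3. Another 1706 bases (44.5%) lie after exon 3, where fragments count toward the gene with or without the floxed exons. The edges of the removed stretch are shown because fragments across them, like fragments inside exons 2 and 3, tell the alleles apart. The gene level does not separate such fragments from the rest. Each line gives 20 bases on either side of an exon junction, with the bases of the floxed exons in capitals.
Armc5 exon 1 to exon 2: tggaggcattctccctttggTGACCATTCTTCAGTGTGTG
Armc5 exon 3 to exon 4: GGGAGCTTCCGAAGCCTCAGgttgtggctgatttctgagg
After removal of the capitals, the last bases of exon 1 in the upper line would stand beside the first bases of exon 4 in the lower line. *Armc5* also shares 675 of its 3834 exon bases with *9130023H24Rik* on the opposite strand. The libraries are stranded, but the sources used here do not say whether the counting used strand.

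The core of the ligase was abundant. *Cul3* was measured at 45.1, 47.1 and 55.8 FPKM in Armc5 flox and at 45.7, 37.7 and 42.6 FPKM in AdArmc5 KO. Only AdArmc5 KO replicate 1, with 45.7 FPKM, reached into the range of Armc5 flox, and the log2 fold change of −0.22 (95% confidence interval −0.57 to 0.12, adjusted p = 0.983, limma) did not pass the test. *Rbx1* was measured at 29.1, 27.2 and 37.7 FPKM in Armc5 flox and at 28.8, 27.8 and 33.01 FPKM in AdArmc5 KO. The AdArmc5 KO libraries lay within the range of Armc5 flox, and the log2 fold change was −0.06 (95% confidence interval −0.45 to 0.33). *Armc5* stood at 11.4%, 12.04% and 10.01% of the level of *Cul3* in Armc5 flox and at 8.02%, 11.9% and 13.7% in AdArmc5 KO, again with the library labelled AdArmc5 KO replicate 3 above the Armc5 flox libraries.

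**Figure D1:**
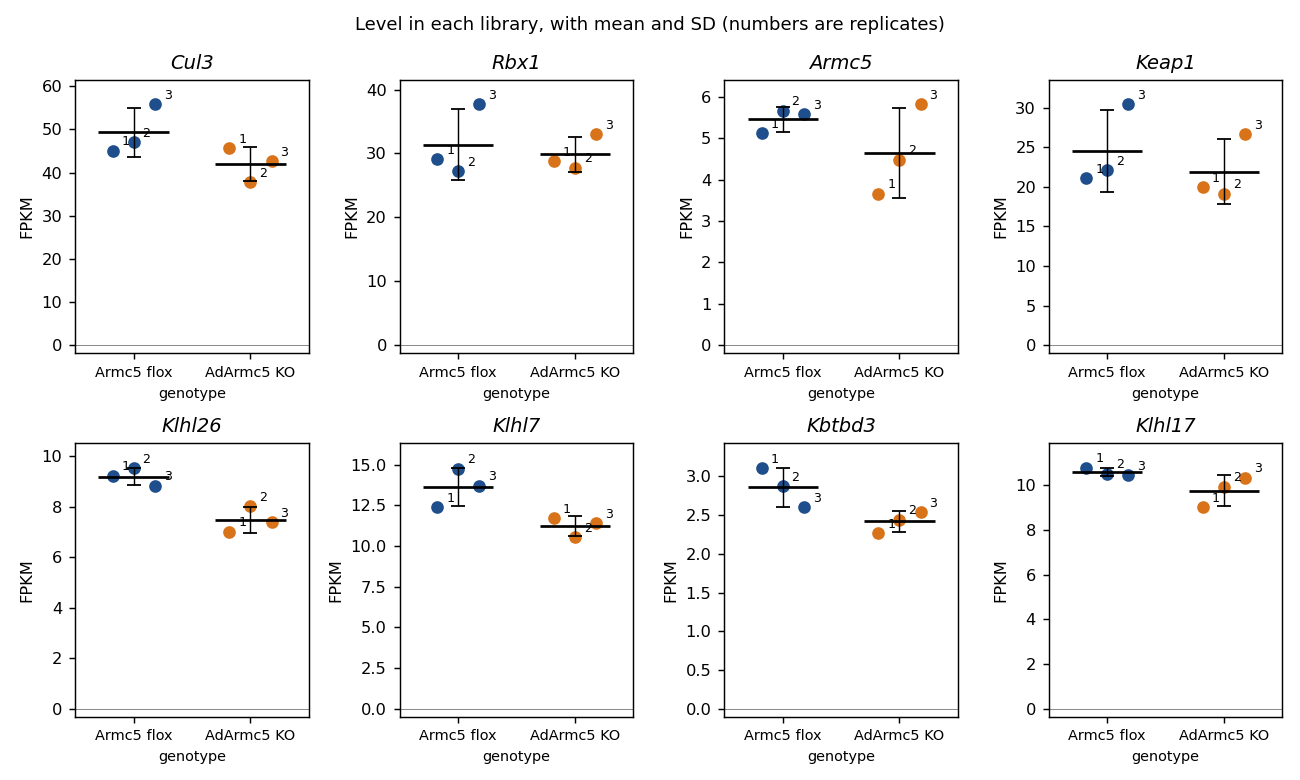
FPKM (y axis, from 0) of *Cul3*, *Rbx1*, *Armc5*, *Keap1* and the 4 tested members whose genotypes did not overlap (*Klhl26*, *Klhl7*, *Kbtbd3*, *Klhl17*), in the libraries of Armc5 flox (blue) and AdArmc5 KO (orange). Points are libraries with their replicate number, the wide bars are means and the error bars SD (n = 3). In *Armc5*, the point of the library labelled AdArmc5 KO replicate 3 lies at 5.82 FPKM, above all 3 Armc5 flox points.

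In Armc5 flox, 9 adaptors had a mean of at least 20 FPKM, 10 had 10 to 20, 18 had 5 to 10, 12 had 1 to 5 and 22 had less than 1. The adaptors summed to 644 to 735 FPKM in Armc5 flox and to 612 to 718 FPKM in AdArmc5 KO, and the 5 most abundant made up 37.6% of the mean sum in Armc5 flox. *Kctd17*, whose human product targets the cilium regulator trichoplein, was first with 66.2 ± 24.03 FPKM (mean ± SD, n = 3), followed by *Kctd10*, which acts on RhoA-type GTPases, with 58.1 ± 8.7 FPKM and *Spop*, the MATH-domain adaptor, with 54.6 ± 5.7 FPKM. These 3 adaptors had a higher mean than *Cul3* itself (49.3 ± 5.7 FPKM). *Klhl2* (46.0 ± 3.1 FPKM), which like KLHL3 targets WNK kinases, *Kctd2* (36.7 ± 7.3 FPKM), *Klhl5* (33.4 ± 5.2 FPKM), *Kctd20* (29.8 ± 5.4 FPKM), *Keap1* (24.5 ± 5.1 FPKM), *Kctd6* (20.7 ± 9.7 FPKM) and *Enc1* (19.8 ± 8.7 FPKM) completed the first 10. In AdArmc5 KO, 9 of these were again among the first 10. Few steps in this order were wider than the spread of the libraries. Among 70 pairs of neighbours, the Armc5 flox values did not overlap in 3, namely *Spop* over *Klhl2*, *Kctd7* over *Klhl28* and *Klhl11* over *Klhl33*.

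*Armc5* stood in the middle of this order, at rank 37 of 71, with 36 adaptors above and 34 below. Its rank was 38, 35 and 34 in the single Armc5 flox libraries and 39, 39 and 33 in those of AdArmc5 KO. The 3 adaptors just above were *Kctd11* (6.26 ± 1.495 FPKM), a suppressor of Hedgehog signalling, *Klhl36* (6.24 ± 2.30 FPKM) and *Kctd18* (5.96 ± 0.49 FPKM). The 3 just below were *Klhl42* (4.85 ± 0.58 FPKM), which targets the microtubule-severing protein katanin, *Klhl14* (3.67 ± 6.22 FPKM) and *Klhl6* (3.43 ± 0.58 FPKM), an adaptor of B cells. The Armc5 flox values of 7 adaptors overlapped with those of *Armc5*, so that their order is not resolved (*Klhl8*, *Kctd11*, *Klhl36*, *Kctd18*, *Klhl42*, *Kctd21* and *Klhl14*). In all Armc5 flox libraries, 31 adaptors were above and 32 below the range of *Armc5*. *Armc5* contributed 0.759% to 0.799% of the summed adaptor FPKM in Armc5 flox and 0.510% to 0.865% in AdArmc5 KO.

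**Figure D2:**
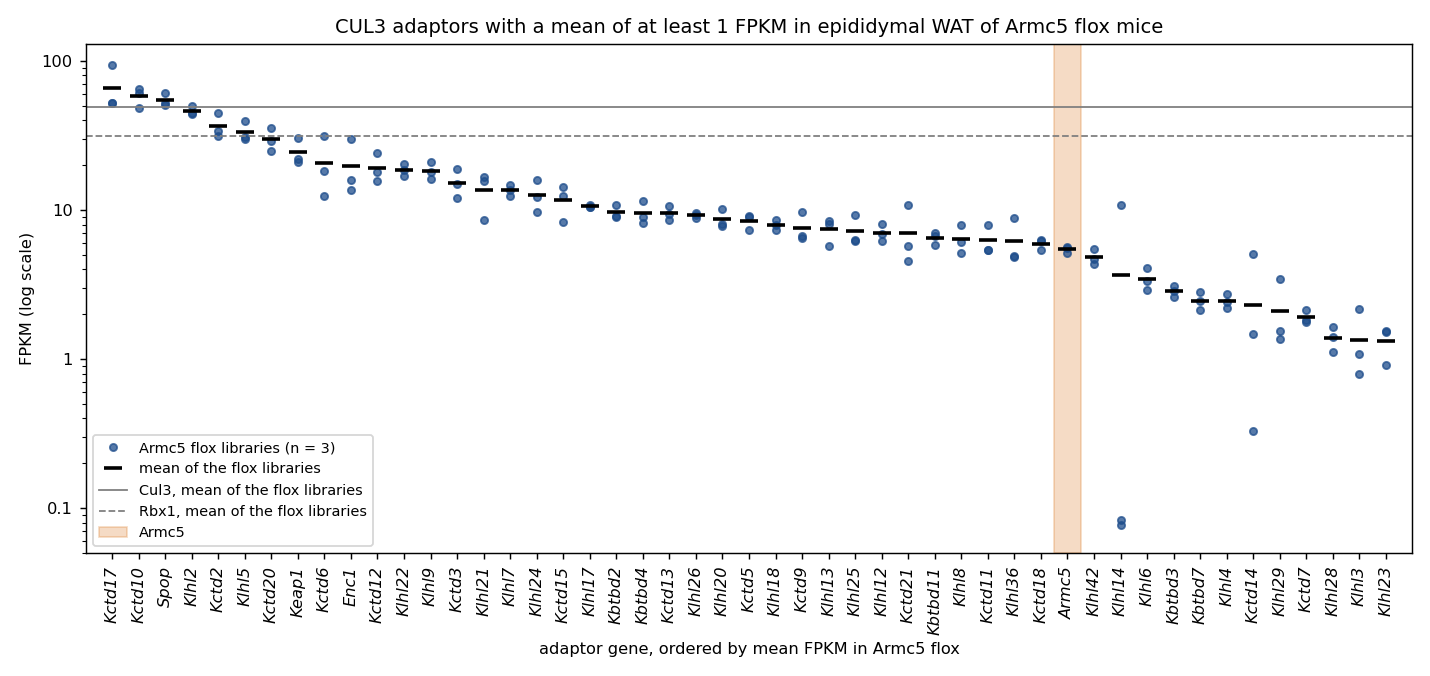
FPKM on a log scale (y axis) of the 49 adaptors with a mean of at least 1 FPKM in Armc5 flox, ordered by that mean (x axis). Points are the 3 Armc5 flox libraries, black bars their mean, the grey lines the means of *Cul3* (49.3 FPKM) and *Rbx1* (31.3 FPKM), and the shaded column marks *Armc5* at 5.45 FPKM, at rank 37.

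For the comparison of genotypes, genes with at least 1 FPKM in at least 3 libraries were tested, which were 12670 genes and 50 of the 73 members (*Cul3*, *Rbx1*, 23 Klhl, 16 Kctd and 5 Kbtbd genes and the 4 single adaptors). No member passed an adjusted p of 0.05, at which 0% of all tested genes were called as well, and the adjusted p of every member was at least 0.983 (limma). Only *Klhl26* had an unadjusted p under 0.05, against 3.35% of all tested genes. In 4 members all AdArmc5 KO libraries lay below all Armc5 flox libraries (*Klhl26*, *Klhl7*, *Kbtbd3* and *Klhl17*), which is 8% of the tested members, against 5.26% of all tested genes. In 0 members all AdArmc5 KO libraries lay above, against 3.54% of all tested genes. The log2 fold change was below 0 in 37 members and above 0 in 13, with a median of −0.06 where that of all tested genes was −0.03. It ranged from −0.41 in *Kctd6* to 0.50 in *Enc1*, and the 95% confidence intervals reached 0.26 to 1.94 to either side, with a median of 0.42. Log2 changes smaller than these intervals could therefore not be told from 0 at this number of libraries.

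**Figure D3:**
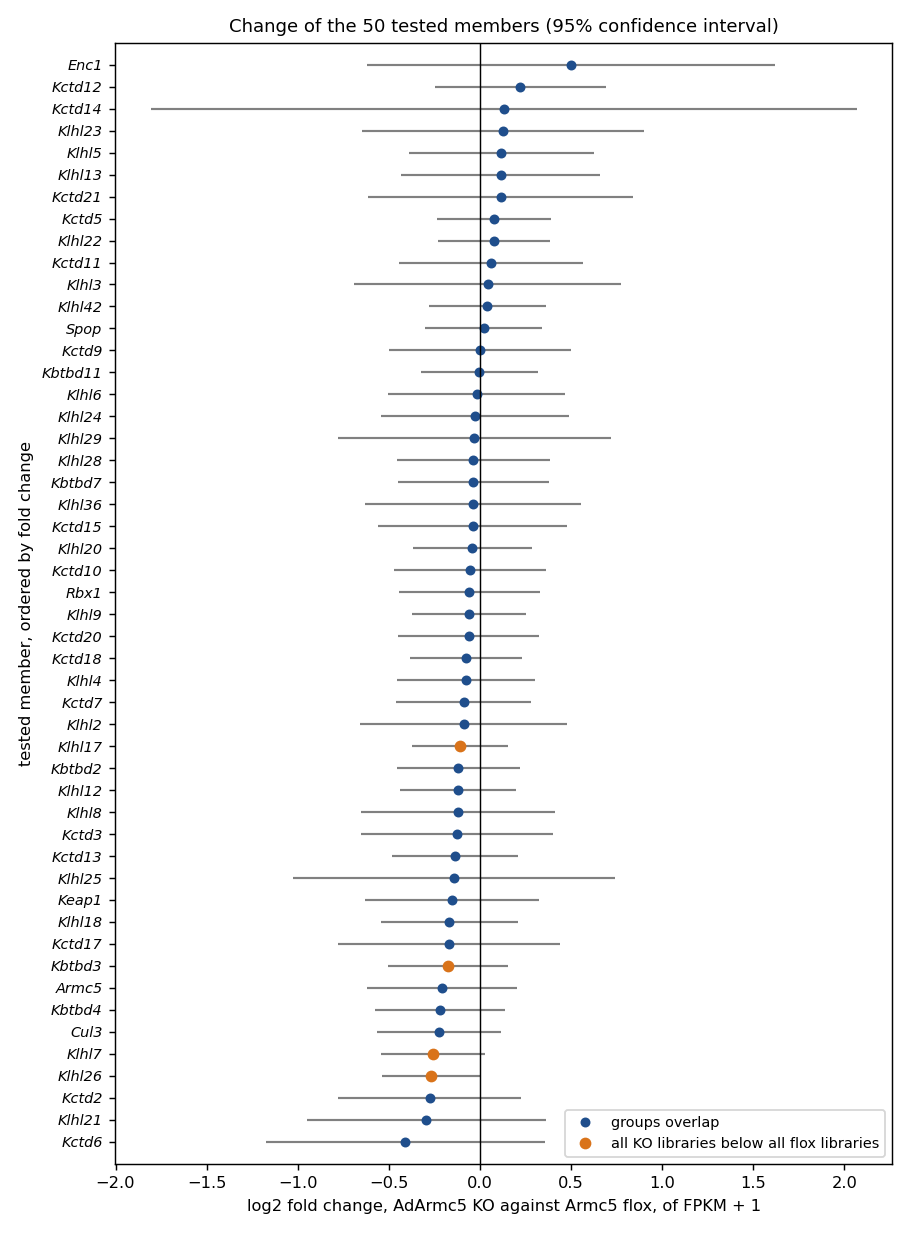
Log2 fold change of FPKM + 1, AdArmc5 KO against Armc5 flox (x axis), of the 50 tested members ordered by that value (y axis). Points are limma estimates, lines their 95% confidence intervals, and orange points mark the 4 members in which all AdArmc5 KO libraries lay below all Armc5 flox libraries. Of the points, 37 lie below 0, and the widest interval belongs to *Kctd14*.

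Among the 4 members without overlap, *Klhl26* was measured at 9.24, 9.53 and 8.84 FPKM in Armc5 flox and at 7.02, 8.03 and 7.39 FPKM in AdArmc5 KO. The highest AdArmc5 KO library stayed below the lowest Armc5 flox library, and the log2 fold change was −0.27 (SE 0.11, unadjusted p = 0.0499, adjusted p = 0.983, limma). *Klhl7*, a gene of human retinitis pigmentosa, was measured at 12.4, 14.8 and 13.7 FPKM in Armc5 flox and at 11.7, 10.5 and 11.4 FPKM in AdArmc5 KO (log2 fold change −0.26, SE 0.12). Here, as in *Klhl26*, the nearest libraries of the genotypes lay within 1 FPKM of each other. *Kbtbd3* was measured at 3.10, 2.88 and 2.60 FPKM against 2.27, 2.44 and 2.54 FPKM (log2 fold change −0.17, SE 0.14). *Klhl17*, a Kelch protein of neuronal synapses known as actinfilin, was measured at 10.8, 10.5 and 10.5 FPKM against 9.01, 9.94 and 10.3 FPKM (log2 fold change −0.11, SE 0.11). In all 4 of these members the libraries that came closest differed by less than the libraries of AdArmc5 KO among themselves.

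Of the adaptors of the stress and chromatin arm, *Keap1*, the sensor that holds NRF2 low, was measured at 21.0, 22.1 and 30.4 FPKM in Armc5 flox and at 19.9, 19.1 and 26.6 FPKM in AdArmc5 KO (log2 fold change −0.15, SE 0.20). Replicate 3 was the highest library in both genotypes. *Spop*, whose targets include DAXX, was measured at 50.3, 61.1 and 52.5 FPKM and at 59.9, 52.6 and 53.4 FPKM (log2 fold change 0.02, SE 0.13), with no separation of the genotypes. *Kbtbd4*, a Kelch adaptor of the CoREST complex, was measured at 9.01, 8.25 and 11.5 FPKM and at 7.47, 8.40 and 8.19 FPKM (log2 fold change −0.22, SE 0.15). Its Armc5 flox replicate 2 lay within the range of AdArmc5 KO. *Kbtbd4* shares 1545 of its 2440 exon bases with *Ptpmt1* on the opposite strand, so that its level depends on how strand was counted.

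The adaptors tied to insulin and lipid metabolism were all above the filter and none passed the test. *Kbtbd2*, which targets the p85 subunit of PI3K and is needed for insulin sensitivity of mice, was measured at 9.16, 8.99 and 10.8 FPKM in Armc5 flox and at 9.20, 7.56 and 9.70 FPKM in AdArmc5 KO (log2 fold change −0.12, SE 0.14). *Klhl9*, a mitotic adaptor that was also linked to the insulin receptor substrate IRS1, was measured at 16.2, 20.9 and 17.9 FPKM and at 17.9, 16.8 and 17.6 FPKM (log2 fold change −0.06, SE 0.13). *Klhl25*, the adaptor of ATP citrate lyase, was measured at 6.32, 6.22 and 9.31 FPKM and at 11.4, 3.69 and 5.97 FPKM. The AdArmc5 KO libraries held both its highest and its lowest value, and the log2 fold change of −0.14 had a SE of 0.37. *Kbtbd11*, known for a role in adipocyte differentiation of mouse cells, was measured at 7.01, 5.81 and 6.69 FPKM and at 6.47, 7.17 and 5.83 FPKM (log2 fold change −0.0027, SE 0.13). *Kctd15*, at a locus tied to human obesity, was measured at 12.5, 14.4 and 8.29 FPKM and at 10.7, 10.003 and 12.8 FPKM (log2 fold change −0.04, SE 0.21). *Kctd17*, the most abundant adaptor, was measured at 52.3, 52.4 and 94.0 FPKM and at 60.1, 50.8 and 59.0 FPKM, so that its higher mean in Armc5 flox rests on replicate 3 (log2 fold change −0.17, SE 0.25).

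Of the first 10 adaptors in Armc5 flox, 5 were KCTD genes (*Kctd17*, *Kctd10*, *Kctd2*, *Kctd20* and *Kctd6*). *Kctd2*, a relative of the G-protein regulator KCTD5, was measured at 31.3, 33.7 and 45.0 FPKM in Armc5 flox and at 29.2, 24.4 and 36.8 FPKM in AdArmc5 KO (log2 fold change −0.28, SE 0.21). *Kctd6*, *Kctd11* and *Kctd21* encode a group of adaptors that lower Hedgehog signalling by targeting HDAC1. *Kctd6* was measured at 18.2, 12.5 and 31.3 FPKM and at 12.6, 15.9 and 14.5 FPKM, and its log2 fold change of −0.41 (SE 0.32) was −0.07 without Armc5 flox replicate 3. *Kctd11* was measured at 5.41, 7.98 and 5.38 FPKM and at 8.06, 6.41 and 5.202 FPKM (log2 fold change 0.06, SE 0.21), and *Kctd21* at 4.53, 10.7 and 5.73 FPKM and at 8.43, 5.77 and 7.67 FPKM. These genes did not share an order of libraries, since *Kctd6* was lowest where *Kctd21* was highest, in Armc5 flox replicate 2. *Kctd10* was measured at 48.2, 61.4 and 64.7 FPKM and at 65.1, 50.9 and 51.7 FPKM (log2 fold change −0.05, SE 0.17), and it shares 1530 of its 3106 exon bases with *Myo1h* on the opposite strand. Its close relative *Kctd13* was measured at 7.73 to 10.7 FPKM. Of the relatives that serve the GABA-B receptor, *Kctd12* was measured at 18.04, 24.1 and 15.6 FPKM and at 25.7, 19.3 and 22.2 FPKM (log2 fold change 0.22, SE 0.19), while *Kctd8* and *Kctd16* stayed at or below 0.153 and 0.414 FPKM.

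Among the Kelch adaptors, those of membrane traffic, mitosis and autophagy were all measured at several FPKM. *Klhl2* was measured at 44.5, 43.9 and 49.5 FPKM in Armc5 flox and at 39.5, 32.98 and 61.1 FPKM in AdArmc5 KO (log2 fold change −0.09, SE 0.23). Its highest value lay in the library labelled AdArmc5 KO replicate 3 and its lowest in AdArmc5 KO replicate 2. *Klhl21*, which with KLHL9 and KLHL13 brings Aurora B to CUL3, was measured at 15.8, 16.8 and 8.63 FPKM and at 8.53, 12.3 and 11.3 FPKM (log2 fold change −0.29, SE 0.27). *Klhl22*, an adaptor for PLK1 and for the mTORC1 regulator DEPDC5, stayed between 16.8 and 21.5 FPKM, *Klhl12*, which acts on the COPII coat, between 5.94 and 8.002 FPKM, and *Klhl20*, an adaptor for ULK1, between 7.78 and 10.1 FPKM. Each of these ranges is less than 1.5-fold wide over the 6 libraries. *Klhl24*, known for keratin 14 in the skin, ranged from 9.77 to 15.9 FPKM. *Kctd20*, at 24.7 to 35.5 FPKM, and *Kctd18* and *Klhl42*, the neighbours of *Armc5*, had log2 fold changes of −0.06 (SE 0.16), −0.08 (SE 0.13) and 0.04 (SE 0.13).

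Several adaptors known from other tissues were low, though not *Klhl17* (9.01 to 10.8 FPKM) or *Klhl24* (9.77 to 15.9 FPKM). *Klhl31*, *Klhl40* and *Klhl41*, adaptors of striated muscle of which KLHL40 and KLHL41 are genes of human nemaline myopathy, stayed at or below 0.112, 0.063 and 0.237 FPKM. *Klhl10*, which male germ cells need, stayed between 0.268 and 0.468 FPKM. *Klhl1*, a neuronal gene, was listed at 0 in all 6 libraries, where 0 fragments allow up to 3 per library. Of the 23 members below the filter, 4 reached 1 FPKM in at least 1 library (*Klhl14*, *Klhl15*, *Kctd1* and *Klhl11*), and another 7 were listed at 0 in at least 1 library. In 0 of these 23 members were the genotypes separated. This count has no share over all genes below the filter beside it. It says little about the members, because many of their values were at or near 0. *Klhl6*, the adaptor of B cells, was measured at 2.92, 4.06 and 3.32 FPKM in Armc5 flox and at 4.38, 2.55 and 3.33 FPKM in AdArmc5 KO (log2 fold change −0.02, SE 0.20). The 5 B cell markers summed to 6.80 to 10.3 FPKM in Armc5 flox and to 4.94 to 6.04 FPKM in AdArmc5 KO, an order that *Klhl6* did not share.

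The members with the widest spread followed libraries rather than genotypes. *Klhl14* was measured at 10.8, 0.0835 and 0.0770 FPKM in Armc5 flox and at 0.0217, 7.91 and 0.945 FPKM in AdArmc5 KO. It was high in the library of each genotype that held the genes of ciliated cells, where *Foxj1*, the regulator of motile cilia, was at 76.0 and 62.4 FPKM against at most 0.708 FPKM elsewhere. The rank of *Klhl14* beside *Armc5* thus rests on 1407 fragments of Armc5 flox replicate 1, against 9 and 8 fragments in the other Armc5 flox libraries. *Kctd14* was measured at 5.09, 0.331 and 1.47 FPKM in Armc5 flox and at 0.330, 7.03 and 1.46 FPKM in AdArmc5 KO (log2 fold change 0.13, SE 0.80), and the same libraries were highest. *Klhl29* (3.43 and 2.85 FPKM against at most 1.63) and *Klhl3* (2.18 and 2.14 FPKM against at most 1.21), the WNK kinase adaptor of the kidney, followed them at a smaller distance. Of the tested members, 3 of 50 (6%) were more than 1.5-fold higher in both of these libraries than in any other (*Kctd14*, *Klhl3* and *Klhl29*), where 4.52% of all tested genes were. *Armc5* was not highest in these libraries, at 5.12 FPKM in Armc5 flox replicate 1 and at 4.48 FPKM in AdArmc5 KO replicate 2. The part of the ciliated or epithelial cells in these values was not tested.

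**Figure D4:**
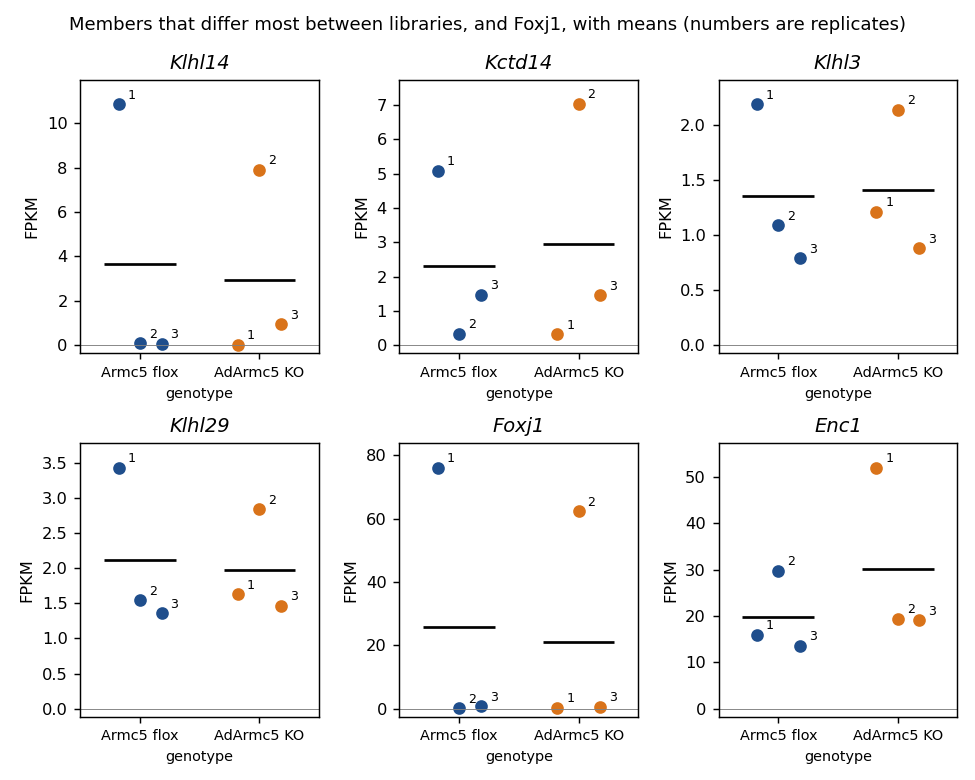
FPKM (y axis) of *Klhl14*, *Kctd14*, *Klhl3*, *Klhl29* and *Enc1* and, for comparison, of the ciliated cell gene *Foxj1*, in Armc5 flox (blue) and AdArmc5 KO (orange). Points are libraries with their replicate number and black bars are means (n = 3). Except in *Enc1*, Armc5 flox replicate 1 and AdArmc5 KO replicate 2 are the highest points of each panel, with *Klhl14* at 10.8 and 7.91 FPKM.

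Because *Klhl3* and *Klhl29* were highest in these libraries, the 250 bases before a RefSeq start site of each (GRCm38.p6, minus strand, printed 5′ to 3′ along the gene) were searched on both strands for the letters GTTGCC, a part of the X-box that RFX factors of ciliated cells bind, and TGTTTAC, the forkhead motif. For *Klhl3* the start used lies inside the annotated gene and is not its outermost start. Neither window holds either motif. Windows of *Klhl14* and *Kctd14*, which followed these libraries at a larger distance, are not printed, so these windows do not stand for the set.
Klhl3 promoter, chr13:58113648-58113897: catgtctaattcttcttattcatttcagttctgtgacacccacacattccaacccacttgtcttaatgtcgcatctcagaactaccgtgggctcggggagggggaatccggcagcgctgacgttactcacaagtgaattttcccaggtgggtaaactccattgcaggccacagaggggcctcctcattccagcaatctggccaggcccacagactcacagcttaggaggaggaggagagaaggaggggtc
Klhl29 promoter, chr12:5375683-5375932: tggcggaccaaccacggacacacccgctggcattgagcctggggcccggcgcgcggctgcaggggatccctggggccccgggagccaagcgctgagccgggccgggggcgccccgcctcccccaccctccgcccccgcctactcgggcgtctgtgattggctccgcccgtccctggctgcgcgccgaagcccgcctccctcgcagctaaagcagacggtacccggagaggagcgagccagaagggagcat
The letters GTTGCC were found in 10.4% of the 32851 mouse promoters of this length and TGTTTAC in 3.2%. Of the 75 promoters of 56 members with an entry, 5 held GTTGCC (those of *Kbtbd7*, *Kbtbd8*, *Kctd2*, *Klhl40* and *Klhl9*) and 2 held TGTTTAC (those of *Kctd15* and *Kctd20*). These letters in a window of this length say nothing about binding in these samples.

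Another set of members was highest in AdArmc5 KO replicate 1 and Armc5 flox replicate 2, the libraries with the highest sums of macrophage markers. The same libraries had the highest sums of adipocyte markers, with 34374 and 39200 FPKM for the 8 genes against 21862 to 27203 FPKM in the other libraries. *Fabp4* alone held 23284 and 28195 FPKM of these sums. *Adipoq*, *Lep* and *Lipe* had the same highest libraries. However, *Plin1*, *Cidec* and *Pparg* were highest in Armc5 flox replicate 3 and *Retn* in the library labelled AdArmc5 KO replicate 3. The set of members held 14 of the 50 tested members (28%), among them *Enc1*, *Klhl5*, *Klhl8*, *Kctd3*, *Kctd12*, *Kctd21* and *Klhl6*. Of all tested genes, 15.1% had the same highest 2 libraries. *Enc1*, an actin-associated Kelch protein, was measured at 16.0, 29.8 and 13.6 FPKM in Armc5 flox and at 52.0, 19.4 and 19.1 FPKM in AdArmc5 KO. It had the largest log2 fold change of the members, 0.50 (SE 0.46, adjusted p = 0.983, limma), which was 0.04 without AdArmc5 KO replicate 1. *Klhl5* was measured at 29.9, 39.4 and 30.9 FPKM and at 47.4, 32.4 and 30.5 FPKM (log2 fold change 0.12, SE 0.21). The library labelled AdArmc5 KO replicate 3 and Armc5 flox replicate 3 were the highest 2 in 6 members (12%), among them *Rbx1*, *Keap1* and *Kbtbd2*, and in 14.4% of all tested genes. *Klhl23* reached 2.72 FPKM in the library labelled AdArmc5 KO replicate 3 against at most 1.55 FPKM elsewhere. *Klhl36* was measured at 8.90, 4.88 and 4.95 FPKM and at 5.16, 7.12 and 5.37 FPKM (log2 fold change −0.04, SE 0.25), which puts it with the libraries that held genes of ciliated cells. The part of macrophages or adipocytes in the levels of *Enc1* and the other genes was not tested.

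**Figure D5:**
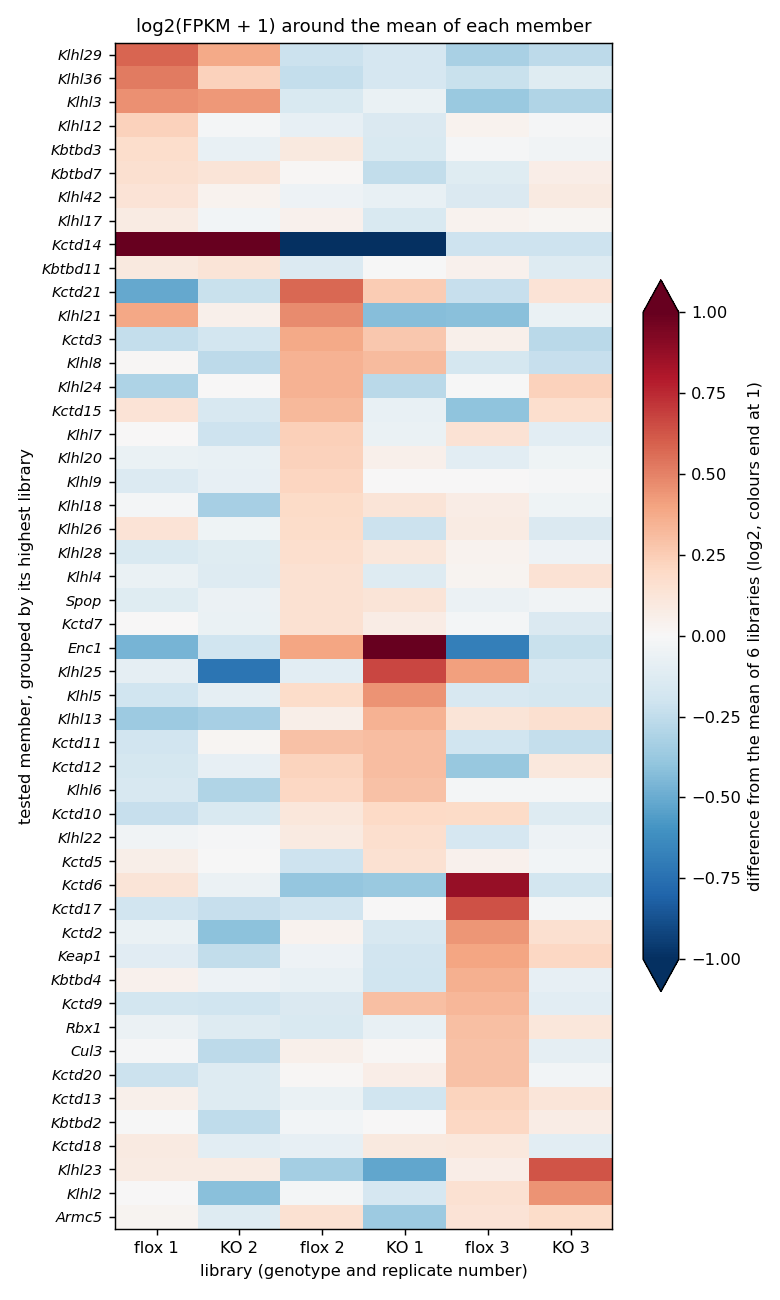
Difference of log2(FPKM + 1) from the mean of the 6 libraries (colour, red above and blue below the mean) for the 50 tested members (y axis, grouped by the library with the highest value) in each library (x axis). *Kctd14* is high in flox 1 and KO 2, and *Enc1* in KO 1 and flox 2, in each case 1 library of either genotype.

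*Kbtbd6* and *Kbtbd7*, neighbours on chromosome 14 whose human products target the RAC1 activator TIAM1, were measured at 0.0264 to 0.0887 and at 1.87 to 2.81 FPKM. Their transcripts share 536 bases without a difference, longer than a read of 100 bases, while the next longest stretch shared by any pair of members was 55 bases (*Klhl21* and *Klhl3*). Fragments from the shared stretch cannot be assigned to either gene, and the split of these levels between the genes is therefore uncertain. The end of the shared stretch is printed for both genes on mm10 (plus strand, coding sequence), with the first base that differs in capitals, after 30 shared bases and before another 29.
Kbtbd6, chr14:79452514-79452573: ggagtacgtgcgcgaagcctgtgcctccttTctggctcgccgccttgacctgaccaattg
Kbtbd7, chr14:79427188-79427247: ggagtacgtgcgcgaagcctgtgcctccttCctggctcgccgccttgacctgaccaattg
Only 1 of these 60 bases differs.

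Other parts of the CUL3 system were listed as 6 groups of 88 genes. None of the tested genes in these groups passed an adjusted p of 0.05 or had an unadjusted p under 0.05 (limma). Over all tested genes, the shares were 0% for the adjusted and 3.35% for the unadjusted p. The median log2 fold change of all tested genes, beside which the medians of these groups stand, was −0.03. Of 20 further BTB genes outside the families above, 19 were tested, 12 with a log2 fold change below 0 and 7 above, with a median of −0.06. *Zbtb16*, the BTB zinc finger protein PLZF that brings CUL3 to the nucleus, was measured at 5.51, 15.8 and 12.4 FPKM in Armc5 flox and at 16.6, 18.7 and 21.1 FPKM in AdArmc5 KO. All AdArmc5 KO libraries lay above Armc5 flox, with a log2 fold change of 0.80 (SE 0.35, unadjusted p = 0.0614, limma), which was 0.39 without Armc5 flox replicate 1. The genotypes were also separated in *Ipp*, a Kelch gene (6.25 to 6.33 against 6.60 to 7.71 FPKM, log2 fold change 0.18, SE 0.11). These were 2 of the 19 tested BTB genes. Over all tested genes, AdArmc5 KO lay wholly above in 3.54% and wholly below in 5.26%. In the other groups AdArmc5 KO lay wholly below in *Cul1*, *Dcun1d5*, *Cops7b*, *Cand1* and 3 substrate genes, among them *Nolc1*. It lay wholly above in *Nedd8* and 2 substrate genes, among them *Pml*. Of the 7 other cullins and *Rnf7*, 6 lay below 0 with a median of −0.13, and *Cul1*, the scaffold of SCF ligases, was measured at 36.6 to 43.6 FPKM in Armc5 flox and at 33.9 to 36.3 FPKM in AdArmc5 KO (log2 fold change −0.17, SE 0.12). *Cul9* lay above 0 (0.27, SE 0.15).

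Cullins are switched on by the attachment of NEDD8 and off by its removal through the COP9 signalosome. Of 10 neddylation genes, 9 had a log2 fold change below 0, with a median of −0.17 against −0.03 over all tested genes. A joint change of these genes was not tested. *Nae1*, a subunit of the NEDD8-activating enzyme, was measured at 22.2, 19.7 and 18.9 FPKM in Armc5 flox and at 19.04, 16.1 and 16.5 FPKM in AdArmc5 KO (log2 fold change −0.23, SE 0.13), and *Dcun1d5*, a co-factor of the transfer, at 29.998 to 41.7 against 24.9 to 29.7 FPKM (−0.28, SE 0.17). *Nedd8* itself was measured at 115, 133 and 130 FPKM in Armc5 flox and at 182, 133 and 133 FPKM in AdArmc5 KO (log2 fold change 0.24, SE 0.17), with AdArmc5 KO replicate 1 far above the rest. Of 10 genes of the COP9 signalosome and deneddylation, 8 lay below 0, with a median of −0.07 and the lowest p in *Cops7b* (log2 fold change −0.17, SE 0.11). Of the 3 exchange factors and inhibitors, *Cand1*, which swaps the adaptors of cullin ligases, was measured at 11.9 to 12.7 FPKM in Armc5 flox and at 10.7 to 11.7 FPKM in AdArmc5 KO (log2 fold change −0.11, SE 0.10), and *Glmn*, which blocks RBX1, had a log2 fold change of 0.16 (SE 0.13). Of 37 genes whose products are known as substrates of CUL3 ligases, 33 were tested, 18 below and 15 above 0, with a median of −0.01. The smallest p among them belonged to *Pml*, a target of KLHL20, at 8.77, 10.4 and 9.34 FPKM in Armc5 flox and at 11.97, 10.8 and 13.4 FPKM in AdArmc5 KO (log2 fold change 0.31, SE 0.13, unadjusted p = 0.0522, limma). *Nolc1*, a target of KBTBD8, followed at −0.44 (SE 0.19) and *Daxx*, a target of SPOP, at 0.40 (SE 0.18). Substrates are controlled as proteins, which these libraries do not measure.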

How the data were processed

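The expression of 73 genes was taken from 6 RNA-seq libraries, 3 of Armc5 flox and 3 of AdArmc5 KO, grouped by the submitters' labels. According to the study's methods and to the submitters' processing notes, stranded poly(A) libraries were sequenced by the authors as pairs of 100-base reads and mapped to mm10 with TopHat2 (version 2.0.13), Bowtie2 (2.2.3) and SAMtools (0.1.19), and the authors deposited FPKM per gene from Cuffnorm (2.2.1). A second deposited signal, the authors' normalized counts, scales the fragments of a gene by library but not by length. The sources used here give neither the annotation nor the strand setting. Also in the table are the authors' own comparison (fold changes between groups and between pairs of libraries, p-values of a Student's t-test, group means), which was not used, and 6 columns of per-sample values on a log2 scale, which were not used either.

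Depth was read from the normalized counts, of which 98.9% to 99.2% of the low values were whole multiples of 1 fragment within 0.1. This did not hold for whole columns, so that no test for counts was run. log2(FPKM + 1) was fitted with limma (3.58.1, R 4.3.3), with genotype as the only term and a mean-variance trend, over the 12670 genes with at least 1 FPKM in at least 3 libraries, and p-values were adjusted over these by Benjamini and Hochberg. The script was tested on simulated data. An exact permutation test over 3 against 3 libraries cannot reach 0.05. Fully described genes were the 6 named single genes, the 10 most abundant adaptors, the 3 on either side of *Armc5*, the 10 with the smallest p, the 5 with the largest spread, and genes fixed for metabolism and other tissues. Of each other list up to 3 genes with the smallest p were named, and *Klhl17* and *Klhl29* were added after their values were seen. *Klhl23*, which is among the 5 with the largest spread, is given by its level only. The members and lists were chosen with earlier results of these data known. Exons came from GENCODE M21 and promoters from RefSeq, and 73 of 73 members were placed by NCBI gene number. The closing section gives the alternatives tried.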

Additional observations from a re-analysis of the deposited data

How the results depend on the processing

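The comparison was repeated under 16 alternatives: pseudocounts of 0.1 and 0.5, no filter, 1 FPKM in at least 1 library, quantile normalization, a rescaling by trimmed means of M values, normalized counts, limma without the trend, the replicate block, each library left out, and, chosen after seeing the data, the libraries with genes of ciliated cells (Armc5 flox replicate 1 and AdArmc5 KO replicate 2) left out together. The alternative with edgeR was not run, because the normalized counts did not give whole fragments. In each of the 16, 0 genes and 0 members passed an adjusted p of 0.05 and the smallest adjusted p of the 44 genes with a log2 fold change in the text was 0.792. *Armc5* and *Cul3* stayed below 0 in all 16, at −0.35 to −0.08 and at −0.29 to −0.13. With each library left out, the median of the members ran from −0.11 (without Armc5 flox replicate 1) to −0.034 (without AdArmc5 KO replicate 2), and it was −0.026 with no filter. *Armc5* moved to rank 31 by normalized counts, which are not scaled to gene length, and kept to ranks 35 to 38 in the other alternatives.

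The sign changed in 17 of the 44 genes. Leaving out single libraries gave −0.071 to 0.062 for *Kbtbd11*, −0.18 to 0.029 for *Kctd10*, −0.078 to 0.22 for *Kctd11*, −0.58 to 0.71 for *Kctd14*, −0.25 to 0.11 for *Kctd15*, −0.31 to 0.11 for *Kctd17*, −0.18 to 0.070 for *Kctd20*, −0.30 to 0.0058 for *Keap1*, −0.34 to 0.098 for *Klhl2*, −0.51 to 0.19 for *Klhl25*, −0.17 to 0.21 for *Klhl36*, −0.020 to 0.12 for *Klhl42*, −0.075 to 0.24 for *Klhl5*, −0.17 to 0.13 for *Klhl6*, −0.14 to 0.035 for *Klhl9*, −0.15 to 0.078 for *Rbx1* and −0.038 to 0.10 for *Spop*. Rescaling by trimmed means gave 0.023 for *Kbtbd11* and 0.0058 for *Klhl6*, and quantile normalization 0.0048 for *Rbx1* and 0.0008 for *Kctd20*. Without the libraries with genes of ciliated cells the values were −0.0014 for *Spop*, 0.11 for *Klhl25*, 0.086 for *Kctd15*, 0.076 for *Klhl2*, 0.083 for *Klhl36*, −0.013 for *Kctd11* and 0.046 for *Klhl6*. None of these genes passed the test under any setting, and the cause was not tested.

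The replicate numbers do not pair the libraries, since libraries of the same number correlated in their deviations from the group means at −0.53, −0.41 and 0.58 and the labels tie no number to a litter. Across numbers, Armc5 flox replicate 1 correlated with AdArmc5 KO replicate 2 at 0.75, and Armc5 flox replicate 2 with AdArmc5 KO replicate 1 at 0.68. The remaining pairs of unlike numbers lay at −0.49 to −0.04. The replicate block followed the numbers, and a block by the correlated libraries was not tested. With the replicate block *Armc5* had a log2 fold change of −0.21 (adjusted p = 0.964), and 0 genes were called. With 3 libraries a group, single libraries moved many values by more than their size, and members with few fragments, such as *Kbtbd6* with 2 to 8 per library, allow no comparison.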
